A study of Mus musculus with 12 samples.

Results

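The fibroblast growth factor (FGF) receptor genes Fgfr1, Fgfr2, Fgfr3, Fgfr4 and Fgfrl1, the Sprouty genes Spry1, Spry2 and Spry4 and the ETS transcription factor genes Etv4 and Etv5 were followed across exocrine acini and 2 kinds of ductal organoid from mouse pancreas. All probe sets whose platform annotation gives a single symbol, and that symbol one of these 10 genes, were taken. They numbered 27 of the 34945 probe sets with a single symbol, which stand for 18193 genes, and 26 of the 27 were bright enough to be tested. Gene expression was measured on Affymetrix arrays, 1 array per sample, with 4 arrays (A to D) in each of 3 groups. Acini were exocrine acini used fresh after isolation, from mice 6 to 9 weeks old where the study's methods give an age, with no genotype stated. Ducts were organoids, that is, cultures grown as hollow structures in Matrigel, started from native duct fragments, with no genotype or age stated. yDucts were organoids started from acini of R26-rtTA; tetO-YAP S127A mice, in which doxycycline at 2 µg/ml for 7 days switched on an activated YAP, and which were then passaged without doxycycline. The R26 driver of rtTA is not limited to acinar cells, so the starting isolate, not the transgene, sets which cells were exposed. In other mice, the paper marked acinar cells through a Ptf1a driver. It reports that yDucts kept this mark and that organoids from duct progenitors never carried it. Both organoid groups were kept in a medium with EGF, gastrin, nicotinamide, Noggin, R-Spondin1, N-acetylcysteine, B27 and FGF10 itself, a ligand of the FGF receptors, and Acini were not cultured. In both comparisons with Acini, FGF10, EGF, the rest of the culture and the change from acinar to ductal cells therefore cannot be told apart. Whether the arrays of a group came from different animals or cultures is not stated beyond their being biological replicas, and each p-value thus reflects array-to-array spread, which may be technical in part.

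FGFs bind receptor tyrosine kinases on the cell surface together with heparan sulphate or a Klotho protein, and the receptors act through adaptors, RAS and the kinases MEK and ERK. ERK signalling raises the transcription of Etv4 and Etv5, which carry the signal into the nucleus, and of Sprouty and dual specificity phosphatase genes, whose products damp it. In the developing pancreas, FGF10 from the mesenchyme acts on Fgfr2 in the epithelium and keeps pancreatic progenitors dividing.

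Promoter sequences came from a RefSeq table (GRCm38.p6, from 250 bases before to 50 bases after an annotated start). From it, 9 windows for 7 of the 10 genes were used, and none was used for Fgfr1, Spry4 and Etv4. The windows were searched on both strands for 3 motifs. The first was CCGGAA, a longer form of the GGAA letters that Etv4 and Etv5 read, called the ETS core here. The others were the TEAD letters GGAATG, through which YAP reaches DNA, and the AP-1 letters TGANTCA. Matches are in capitals in the 4 windows printed, chosen to show the 3 that hold the ETS core (Spry2, Fgfr4, Fgfrl1) beside that of Fgfr2, which rose in both organoid groups and whose window holds no match. In order, they lie at chr14:105896770-105897069 on the minus strand, chr7:130266759-130267058 on the minus strand, chr13:55152568-55152867 on the plus strand and chr5:108693979-108694278 on the plus strand.
Spry2: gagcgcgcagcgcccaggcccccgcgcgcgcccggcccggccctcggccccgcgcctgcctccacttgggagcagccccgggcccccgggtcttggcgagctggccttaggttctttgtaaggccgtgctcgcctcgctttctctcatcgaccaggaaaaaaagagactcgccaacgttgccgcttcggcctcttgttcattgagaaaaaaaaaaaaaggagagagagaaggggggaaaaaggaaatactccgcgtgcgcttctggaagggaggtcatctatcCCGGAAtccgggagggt
Fgfr2: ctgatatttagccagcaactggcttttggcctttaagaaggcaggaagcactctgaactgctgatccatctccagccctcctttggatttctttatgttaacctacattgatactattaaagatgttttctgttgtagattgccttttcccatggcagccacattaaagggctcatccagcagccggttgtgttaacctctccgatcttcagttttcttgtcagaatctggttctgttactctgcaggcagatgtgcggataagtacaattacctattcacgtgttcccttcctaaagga
Fgfr4: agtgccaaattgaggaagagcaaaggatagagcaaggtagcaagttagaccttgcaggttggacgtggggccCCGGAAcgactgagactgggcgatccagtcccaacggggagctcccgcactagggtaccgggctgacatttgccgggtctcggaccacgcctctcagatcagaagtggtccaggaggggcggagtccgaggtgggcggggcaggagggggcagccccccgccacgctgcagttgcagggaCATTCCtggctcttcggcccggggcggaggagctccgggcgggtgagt
Fgfrl1: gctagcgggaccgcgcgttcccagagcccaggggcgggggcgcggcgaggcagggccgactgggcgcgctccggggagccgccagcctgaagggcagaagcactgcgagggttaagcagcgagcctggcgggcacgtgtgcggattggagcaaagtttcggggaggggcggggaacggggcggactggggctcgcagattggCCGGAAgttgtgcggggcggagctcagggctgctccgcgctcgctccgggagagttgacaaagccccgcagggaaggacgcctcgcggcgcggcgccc
The ETS core lay 34 bases into the Spry2 transcript, 178 bases before the Fgfr4 start and 48 bases before the Fgfrl1 start. It was thus found in 3 of the 9 windows, beside 14.9% of 32851 promoter windows of the same length. TEAD letters were found in 2 of the 9, in Fgfr4, 3 bases into the transcript, and in Spry1, 208 bases before the start, beside 14.7% of all windows. AP-1 letters were found in 0 of the 9, beside 7.8% of all windows. The windows of Fgfr2 and Fgfr3 and both windows of Etv5 held none of the 3 motifs, as did 66.5% of all windows. The ETS core in the form CCGGAA was thus found in Spry2, which rose, and in Fgfr4, which fell on its leading probe set. It was not found in the windows of Fgfr2 and Etv5, which rose. The shorter letters GGAA, which were not counted, do occur in the Fgfr2 window and in a window of Etv5. Each match is a run of letters, not a measured binding site.

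Values are log2 signals as the authors deposited them. They compare the same probe set across arrays, never one probe set with another. A gene is led by the probe set that was brightest on average across the 12 arrays. Testing required a signal over the 30th percentile on 4 or more arrays, and that percentile was 3.64 to 3.79 on the Acini arrays, 3.19 to 3.23 on the Ducts arrays and 3.18 to 3.21 on the yDucts arrays. A mean below it is called below background here, and a fold against such a mean is given as "at least". Differences were tested with limma over all 33436 tested probe sets, and a call means an adjusted p under 0.05. The Acini arrays stood apart in level: the median over all tested probe sets was 0.16 higher in Ducts and 0.13 higher in yDucts than in Acini, whereas median centring of the arrays moved these shifts to 0.37 and 0.35. Quantile normalization brought them to 0.0033 and -0.012, and cyclic loess to 0.0039 and 0.0016. Signal near the 3′ end of Gapdh exceeded that near the 5′ end by 1.54 ± 0.29 in Acini (SD, n = 4). In Ducts this excess was -0.04 ± 0.04 and in yDucts -0.15 ± 0.02, which is how arrays read when RNA or cDNA is shorter in one group, here Acini, and the part of this in the differences against Acini was not tested. Among the Ducts arrays, C and D were close to each other (r = 0.993 over all tested probe sets) and B was farthest from D (r = 0.940), so results that rest on Ducts are given without either pair where a call changes.

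Against Acini, both organoid groups had far more Spry2 and Etv5, more Fgfr2, and less Fgfr1. Fgfr4 was lower on its leading probe set, at low signal. Of the 26 tested probe sets, 9 were called higher and 12 lower in Ducts, or 34.6% and 46.2%, beside 40.0% and 31.2% of all tested probe sets. In yDucts, 8 were called higher and 9 lower, or 30.8% and 34.6%, beside 39.7% and 31.6% of all. Most probe sets on the array differed between fresh acini and organoids, so these counts do not set the 10 genes apart. Groups did not overlap for 15 probe sets (57.7%) in Ducts against Acini and 16 (61.5%) in yDucts against Acini, beside 59.2% and 65.9% of all. By leading probe sets, 4 genes were called higher (Fgfr2, Fgfr3, Spry2, Etv5) and 4 lower (Fgfr1, Fgfr4, Fgfrl1, Spry4) in Ducts, beside 42.4% and 32.9% of the leading probe sets of all genes. In yDucts, 3 were called higher (Fgfr2, Spry2, Etv5) and 4 lower (Fgfr1, Fgfr4, Fgfrl1, Spry4), beside 43.4% and 32.3%. The median difference of the 26 probe sets was -0.34 in Ducts and -0.30 in yDucts.

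**Figure D1:**
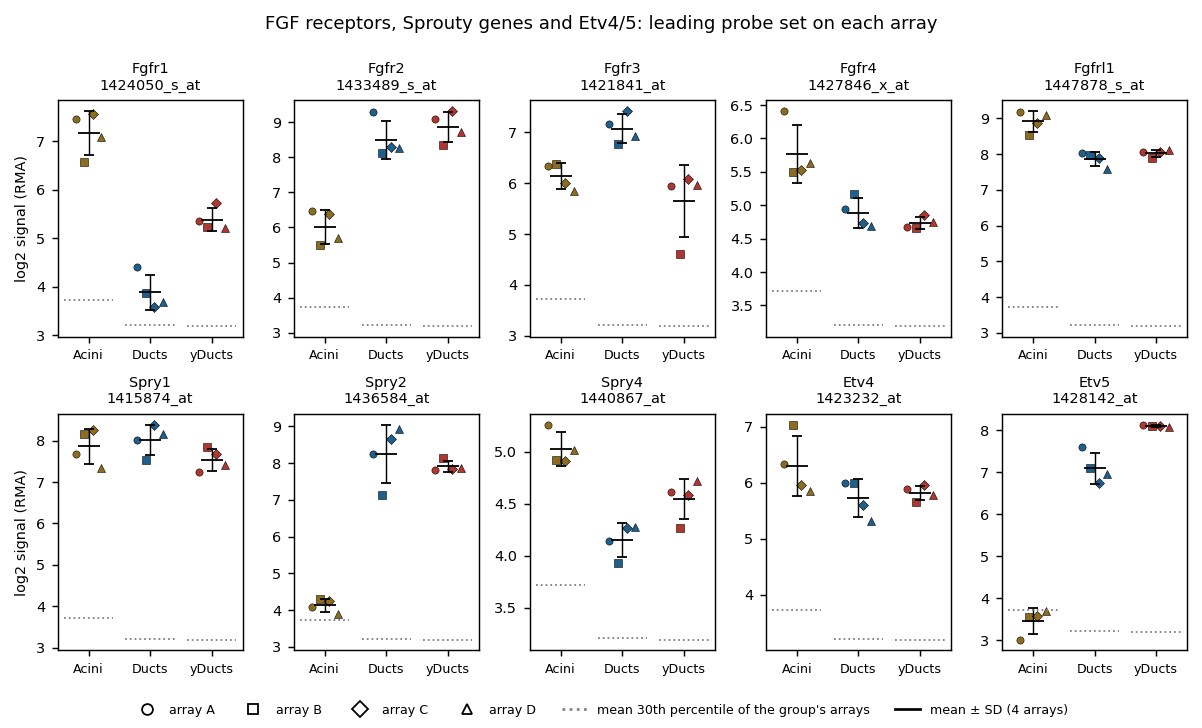
Log2 signal of the leading probe set of each gene (vertical axis, 1 scale per panel) in the 3 groups (horizontal axis), with 1 point per array, bars for the mean ± SD of 4 arrays and a dotted line at the mean 30th percentile of the group's arrays. Spry2 and Etv5 lie near the dotted line in Acini and at 6.74 or above in both organoid groups, Fgfr1 is ordered Acini, yDucts, Ducts with no overlap, and Fgfr3 is highest in Ducts.

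Fgfr1, the receptor best known from mesenchyme, fell in both organoid groups and less so in yDucts. Its leading probe set, 1424050_s_at, read 7.46, 6.57, 7.57 and 7.08 on the Acini arrays A to D, 4.40, 3.87, 3.59 and 3.68 on the Ducts arrays, and 5.36, 5.23, 5.72 and 5.21 on the yDucts arrays. All Acini arrays were above all yDucts arrays, and all yDucts arrays above all Ducts arrays. Ducts were thus 9.75-fold below Acini (log2 difference -3.28, SE 0.24, adjusted p = 8.94e-08), and yDucts 3.46-fold below (-1.79, adjusted p = 1.97e-05). The second probe set, 1436551_at, fell too, from 6.03 ± 0.54 in Acini to 3.80 ± 0.08 in Ducts (adjusted p = 1.499e-06) and 4.07 ± 0.19 in yDucts (adjusted p = 4.65e-06), with no overlap. The dimmest, 1425911_a_at, fell by 0.69 in Ducts (adjusted p = 0.00564) with overlapping groups, a call lost after cyclic loess (adjusted p = 0.543), and its difference in yDucts was -0.37 (adjusted p = 0.0981).

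Most markers of other pancreatic cells moved the same way as Fgfr1. All 13 tested stromal and mural markers, all 10 endothelial and all 9 tested endocrine markers were lower in both organoid groups, as were 8 of 10 tested immune markers. In each organoid group 1 immune marker was called higher and 1 was not called. The higher one was Cd68, named after its values were seen. It read 3.41 to 4.10 on the Acini arrays, 4.17 to 6.57 on the Ducts arrays and 4.37 to 5.25 on the yDucts arrays. The stromal list averaged 6.71 to 7.28 on the Acini arrays, 3.39 to 3.53 on the Ducts arrays and 3.45 to 3.53 on the yDucts arrays, with 6 and 4 of its 13 genes below background in the organoids, and 0 of the 13 were called between yDucts and Ducts. Among them were the matrix genes Dcn (-7.47 in Ducts), Col3a1 (at least 75.5-fold lower in Ducts, where it was below background) and Col1a2 (-5.13). The endothelial list averaged 5.90 to 6.36 in Acini and 3.32 to 3.60 in the organoids, led by Plvap, Emcn and Esam. The endocrine list averaged 6.48 to 6.91 and 3.28 to 3.40, led by Ins2, Iapp and Gcg, and the immune list 5.51 to 5.87 and 3.78 to 4.39, led by Lyz2, C1qb and C1qa. Fewer cells of a type and less RNA per cell cannot be told apart in these bulk samples, and the part of these cells in any fall against Acini was not tested. All 11 tested acinar markers were lower in both organoid groups, among them the digestive enzyme genes Cpb1, at least 2552-fold lower in Ducts, Cela2a, at least 2300-fold lower, and Cpa1, lower by 11.31 on the log2 scale. Of 11 duct markers, 7 were called higher in each organoid group, among them Tspan8, Krt7 and Krt19. The other 4 were not called in Ducts, and in yDucts 3 were not called and 1, Muc1, named after its values were seen, was lower (-0.67, adjusted p = 0.00729).

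Fgfr2, the receptor of FGF10 in epithelium, rose in both organoid groups. On its leading probe set, 1433489_s_at, the Acini arrays A to D read 6.46, 5.50, 6.37 and 5.69, the Ducts arrays 9.28, 8.13, 8.28 and 8.27, and the yDucts arrays 9.10, 8.35, 9.32 and 8.71. Every organoid array was above every Acini array, and Ducts A stood above the other Ducts arrays. The rise was 5.60-fold in Ducts (2.49, SE 0.30, adjusted p = 8.90e-06) and 7.29-fold in yDucts (2.87, SE 0.30, adjusted p = 2.38e-06). A second probe set, 1420847_a_at, rose by 1.40 (adjusted p = 0.000752) and 1.98 (adjusted p = 4.14e-05), again without overlap, although the first of these calls was lost after cyclic loess (0.58, adjusted p = 0.0898). The third, 1443211_at, read 3.95 ± 0.57 in Acini, 3.37 ± 0.18 in Ducts and 3.24 ± 0.18 in yDucts, close to background in all groups. It went the other way, with adjusted p = 0.0471 in Ducts and 0.0175 in yDucts, overlapping groups and no call after cyclic loess (adjusted p = 0.950 and 0.616). The call in Ducts was lost under 17 of 21 alternatives and that in yDucts under 3. Whether these probe sets tell the epithelial and mesenchymal splice forms of the receptor apart was not tested.

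Fgfr3 was the receptor gene that separated the 2 kinds of organoid in the opposite direction to Fgfr1. The leading probe set, 1421841_at, gave 6.33, 6.37, 6.01 and 5.85 on the Acini arrays A to D, 7.16, 6.77, 7.42 and 6.92 on the Ducts arrays, and 5.95, 4.60, 6.09 and 5.96 on the yDucts arrays. The Ducts arrays were above all others, while Acini and yDucts overlapped, with yDucts B far below its group. Ducts were 1.90-fold above Acini (0.93, SE 0.29, adjusted p = 0.0120). This rise was smaller and no longer called after quantile normalization (0.17, adjusted p = 0.608), after cyclic loess (0.21, adjusted p = 0.557) and with Ducts C and D left out (0.83, adjusted p = 0.0685). The difference of yDucts from Acini was -0.49 (adjusted p = 0.148), and it was called lower under those same normalizations (-1.10 and -1.20, adjusted p = 0.00348 and 0.00325). The dimmer probe set, 1425796_a_at, was not called in any comparison and read 4.12 ± 0.17 in Acini, 4.14 ± 0.17 in Ducts and 3.85 ± 0.06 in yDucts.

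Fgfr4, which with the co-receptor Klb answers endocrine FGFs in liver, was lower in both organoid groups at low signal. Its leading probe set, 1427846_x_at, of the kind that may also bind transcripts of other genes, read 6.41, 5.50, 5.53 and 5.63 on the Acini arrays, 4.95, 5.17, 4.73 and 4.69 on the Ducts arrays, and 4.67, 4.66, 4.85 and 4.75 on the yDucts arrays. No organoid array reached an Acini array, and Acini A stood above its group. The fall was 1.84-fold in Ducts (-0.88, adjusted p = 0.00159) and 2.05-fold in yDucts (-1.03, adjusted p = 0.000477). 1427845_at was above the 30th percentile on the 4 Acini arrays and on 0 arrays of either organoid group. It was thus tested only through the group where it is high, and its fall is not separate support. That fall was at least 1.71-fold in Ducts and at least 1.73-fold in yDucts, bounds that also hold the higher percentile of the Acini arrays. Without overlap, as for 1427845_at, fell 1427777_x_at, by 0.59 and 0.62. The last of these lost its call in both comparisons after cyclic loess (adjusted p = 0.603 and 0.574). 1418596_at was not called in any comparison, with group means of 3.84 to 4.07. 1427776_a_at, untested, was below the 30th percentile on all 12 arrays. It still differed from Acini by -1.0475 in Ducts and -1.045 in yDucts. A fall as large as that of the leading probe set was thus also seen in signal below background.

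Fgfrl1, which binds FGFs but lacks the kinase domain, gave probe sets that disagreed. The leading one, 1447878_s_at, was 9.17, 8.53, 8.87 and 9.10 on the Acini arrays A to D, 8.04, 7.97, 7.89 and 7.58 on the Ducts arrays, and 8.05, 7.88, 8.05 and 8.11 on the yDucts arrays. It was lower in all organoid arrays than in any Acini array, by 1.05 in Ducts (SE 0.17, adjusted p = 9.81e-05) and 0.89 in yDucts (adjusted p = 0.000358). The other, 1451912_a_at, read 4.87, 6.42, 6.24 and 5.45 on the Acini arrays and 6.26 to 6.62 on all organoid arrays. It was higher by 0.68 in Ducts (adjusted p = 0.0413), with overlap and a call that held under 7 of 22 alternatives, and by 0.80 in yDucts (adjusted p = 0.0187), without overlap. After cyclic loess the difference in Ducts was -0.02 and that in yDucts 0.11, neither called. With both probe sets averaged, Fgfrl1 was not called against Acini (-0.19, adjusted p = 0.239 in Ducts, and -0.05, adjusted p = 0.769 in yDucts), so no direction is given for the gene.

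**Figure D2:**
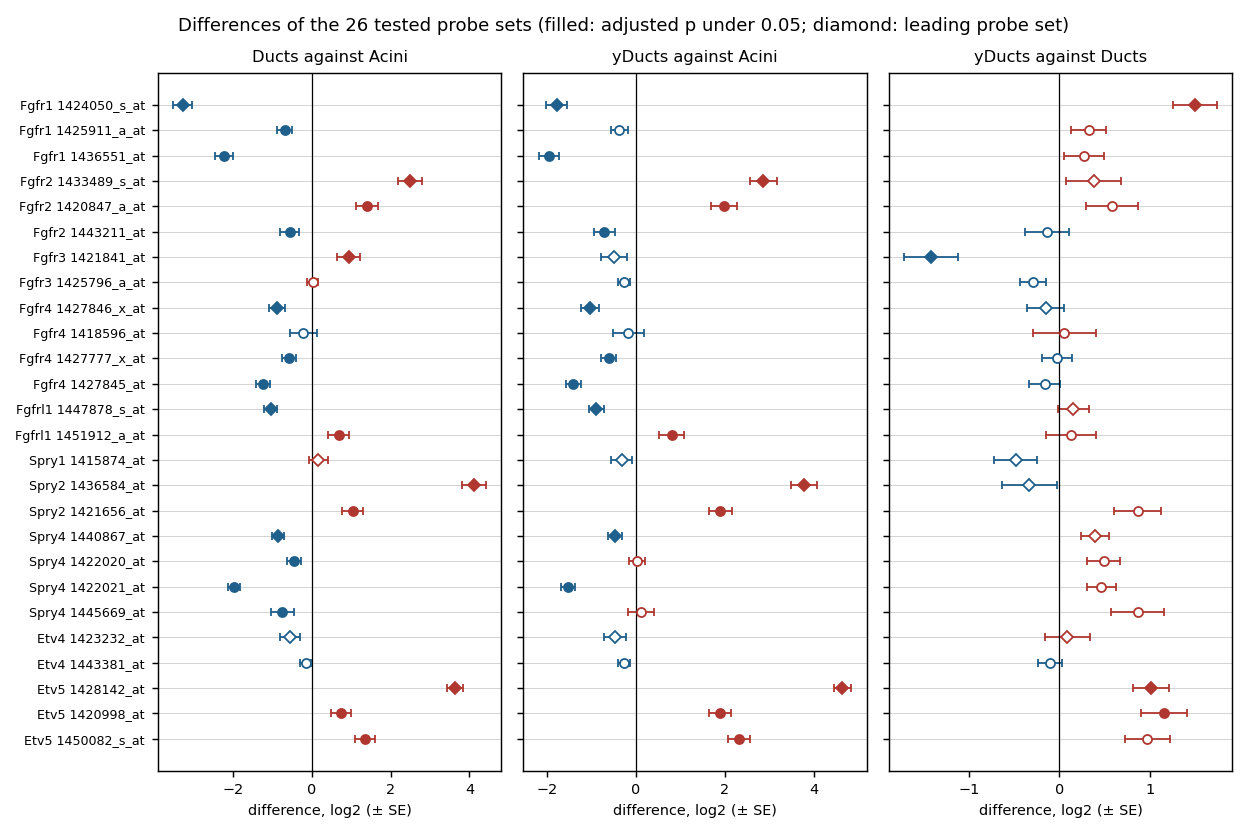
Log2 difference ± SE (horizontal axis) of the 26 tested probe sets (rows) in the 3 comparisons (panels, each with its own scale), with filled symbols at an adjusted p under 0.05, diamonds for leading probe sets and red for positive values. The 4 filled symbols of the right panel are 1 probe set of Fgfr1 and 2 of Etv5, higher in yDucts, and 1 of Fgfr3, lower. The probe sets of Etv5 and Spry2 lie on 1 side in both panels against Acini and those of Fgfr2 and Fgfrl1 on both sides.

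Spry2, an inhibitor of receptor tyrosine kinase signalling that ERK signalling itself induces, rose in both organoid groups. The values of 1436584_at were 4.09, 4.30, 4.24 and 3.90 on the Acini arrays, 8.25, 7.13, 8.66 and 8.94 on the Ducts arrays, and 7.80, 8.14, 7.85 and 7.86 on the yDucts arrays. Acini were just above background, and the lowest organoid array, Ducts B, was well above the highest Acini array. The rise was 17.3-fold in Ducts (4.11, SE 0.30, adjusted p = 9.34e-08) and 13.7-fold in yDucts (3.78, adjusted p = 1.92e-07). A second probe set, 1421656_at, also rose without overlap, by 1.03 in Ducts (adjusted p = 0.00299) and 1.90 in yDucts (adjusted p = 2.35e-05). Its Ducts arrays ran from 4.96 to 6.36 and its yDucts arrays from 6.20 to 6.84, which overlap.

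Spry4 and Spry1 did not share this rise. Spry4 was lower in both organoid groups on its leading probe set, 1440867_at, which read 5.26, 4.92, 4.91 and 5.02 on the Acini arrays, 4.14, 3.93, 4.27 and 4.28 on the Ducts arrays, and 4.61, 4.27, 4.59 and 4.72 on the yDucts arrays. Neither organoid group reached the Acini arrays. The fall was 0.87 in Ducts (SE 0.15, adjusted p = 0.000204) and 0.48 in yDucts (adjusted p = 0.0127), the latter lost after cyclic loess (-0.16, adjusted p = 0.348) and after median centring (-0.26, adjusted p = 0.137). A further probe set, 1422021_at, was 5.27 ± 0.16 in Acini, 3.29 ± 0.19 in Ducts and 3.75 ± 0.22 in yDucts, and its fall was larger (-1.98 and -1.52, adjusted p = 2.21e-07 and 2.28e-06). The other two, 1422020_at and 1445669_at, were called lower in Ducts only, by 0.46 and 0.76 (adjusted p = 0.0336 and 0.0321), with overlap, and their yDucts differences from Acini were 0.03 and 0.11. Both lost the call in Ducts after cyclic loess, 1422020_at with a difference of 0.09, and each kept it under 11 of 21 alternatives. Spry1 has 1 probe set, 1415874_at, with Acini arrays from 7.35 to 8.26, Ducts arrays from 7.53 to 8.37 and yDucts arrays from 7.24 to 7.84. All groups overlapped and the gene was not called in any comparison (0.16, -0.32 and -0.49), but it was called lower against Acini after quantile normalization (-0.73 in Ducts and -1.22 in yDucts) and cyclic loess (-0.89 and -1.38).

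Etv5 and Etv4, which encode close relatives among the ETS factors, differed. Etv5 read 3.01, 3.55, 3.57 and 3.69 on the Acini arrays A to D on its leading probe set, 1428142_at, below background in that group. The Ducts arrays were at 7.60, 7.09, 6.74 and 6.95, and the yDucts arrays at 8.13, 8.10, 8.11 and 8.07. The 3 groups did not overlap, and the yDucts arrays lay within 0.06 of each other. Etv5 was at least 10.4-fold higher in Ducts than in Acini (adjusted p = 5.995e-09) and at least 20.9-fold higher in yDucts (adjusted p = 5.64e-10). The other probe sets rose as well: 1450082_s_at by 1.34 and 2.31 (adjusted p = 0.000305 and 2.63e-06) and 1420998_at by 0.74 and 1.89 (adjusted p = 0.0178 and 1.79e-05). The rise of 1420998_at in Ducts had overlapping groups and was not called without Ducts A and B (0.44, adjusted p = 0.171). Etv4 read 6.29 ± 0.54 in Acini, 5.73 ± 0.34 in Ducts and 5.81 ± 0.13 in yDucts on 1423232_at. Its differences from Acini were -0.56 (adjusted p = 0.0549) and -0.48 (adjusted p = 0.0971) with overlapping groups, and it was called lower after quantile normalization (-1.18 and -1.14, adjusted p = 0.00181 and 0.00235) and cyclic loess (-1.13 and -1.04). The dim second probe set, 1443381_at, was not called in any comparison.

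Between the 2 kinds of organoid, which were kept in the same medium, yDucts had more Fgfr1 and Etv5 and less Fgfr3 than Ducts. The groups differed in starting cells and in the YAP switched on by doxycycline, and perhaps in genotype and age. These cannot be told apart in this contrast. Of the 26 probe sets, 3 were called higher in yDucts and 1 lower, or 11.5% and 3.85%, beside 1.57% and 0.757% of all tested probe sets. Groups did not overlap for 8 of them (30.8%), beside 12.0% of all. These 8 belong to Etv5, Spry4, Fgfr3 and Fgfr1 only, several to the same gene, and not all of them were called. Of the 3 called higher, 2 belong to Etv5, so they are not separate evidence. By leading probe sets these were 2 genes higher and 1 lower, beside 2.01% and 0.881% of the leading probe sets of all genes. Fgfr1 was 2.82-fold higher in yDucts on 1424050_s_at (1.495, SE 0.24, adjusted p = 0.00475), while its other probe sets gave 0.32 and 0.27, not called. Etv5 was 2.01-fold higher on 1428142_at (1.01, SE 0.20, adjusted p = 0.0158) and 2.22-fold on 1420998_at (1.15, SE 0.25, adjusted p = 0.0285). On 1450082_s_at it was 0.97 higher, without overlap and not called (adjusted p = 0.0647). Fgfr3 was 2.67-fold lower (-1.42, SE 0.29, adjusted p = 0.0213), and still lower with the outlying array yDucts B left out (-1.07, adjusted p = 0.0154). The difference was 0.38 for Fgfr2, -0.33 for Spry2, -0.49 for Spry1, 0.39 for Spry4, -0.15 for Fgfr4, 0.15 for Fgfrl1 and 0.09 for Etv4 on the leading probe sets, none called.

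These 4 calls depended on the arrays Ducts C and D. Without this pair none remained: Fgfr1 was 1.25 higher (adjusted p = 0.0688), Fgfr3 1.31 lower (-1.31, adjusted p = 0.155), and Etv5 0.76 and 0.86 higher on its 2 probe sets (adjusted p = 0.189 and 0.292). Without Ducts A and B, 7 probe sets were called, and the same values were 1.75, -1.52, 1.26 and 1.45. Without Ducts C alone, or Ducts D alone, the call of Fgfr1 was left (adjusted p = 0.0214 and 0.0202). The directions held with either pair left out. Without yDucts A, and without yDucts C, 2 were left, Fgfr1 and Fgfr3. Of the 11 acinar markers, 9 were not called in this contrast and the median difference was 0.098. Called higher in yDucts were 2, named after their values were seen: Nr5a2, by 3.74, and Amy1, at least 1.10-fold, since it was below background in Ducts. The list averaged 3.46 to 3.75 on the Ducts arrays and 4.02 to 4.11 on the yDucts arrays, and the part of acinar cells in the higher Fgfr1 and Etv5 was not tested. On the leading probe sets, Fgfr1 averaged 7.17 in Acini, above both organoid groups. Etv5 averaged 3.455 there, below background and below both organoid groups. The endogenous and transgenic forms of Yap1 were not separated, and Yap1 (0.18), its relative Wwtr1 (-0.17) and the YAP target gene Ccn2 (0.12) were not called between yDucts and Ducts, while Yap1, Wwtr1 and Ccn2 were each called higher in both than in Acini.

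**Figure D3:**
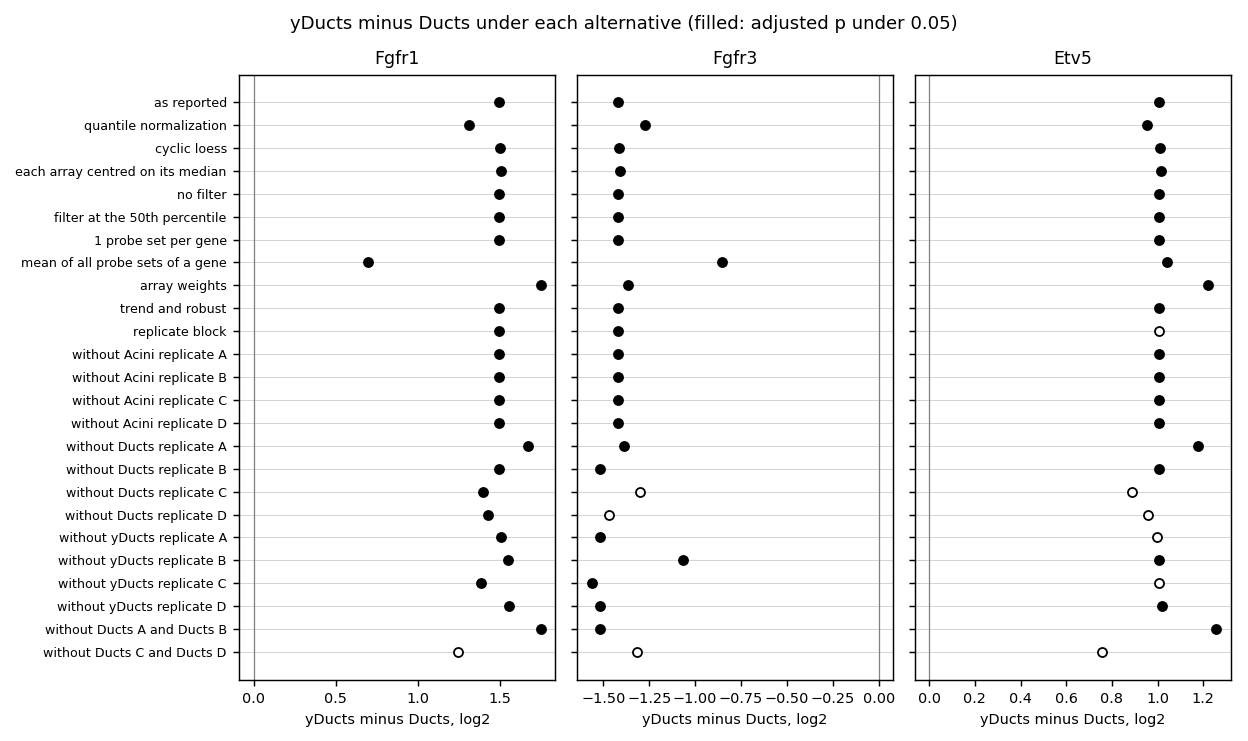
Log2 difference yDucts minus Ducts (horizontal axis, 1 scale per panel) of the leading probe sets of Fgfr1, Fgfr3 and Etv5 as reported and under each alternative (rows), filled where the adjusted p was under 0.05. All values keep their sign, and the bottom row, without Ducts C and D, is open in the 3 panels.

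Of 24 FGF ligand and binding protein genes, 19 were tested, of which 3 were called higher and 8 lower in Ducts and 3 higher and 11 lower in yDucts (median -0.47 and -0.67, beside 0.20 and 0.24 over all genes, of which 42.4% and 43.4% were called higher and 32.9% and 32.3% lower). Fgf21, an endocrine FGF that acinar cells make, read 8.77, 8.98, 8.98 and 8.78 on the Acini arrays, 4.38, 3.59, 4.39 and 4.85 on the Ducts arrays, and 5.30, 4.98, 5.50 and 5.96 on the yDucts arrays. It fell 23.8-fold in Ducts (adjusted p = 7.83e-09) and 10.9-fold in yDucts, with all yDucts arrays above all Ducts arrays (1.13, adjusted p = 0.0347, and 0.82, adjusted p = 0.0575 without Ducts A and B). The call of Fgf21 between the organoids was lost under 8 of 24 alternatives, with the highest adjusted p, 0.116, without yDucts D. Fgf22 fell 2.86-fold and 3.15-fold. Fgfbp1, which releases FGFs from the matrix, read 9.62 to 10.31 on the Ducts arrays and 8.23, 5.84, 8.58 and 8.72 on the yDucts arrays, against 3.39 to 4.62 on the Acini arrays. It was thus 57.7-fold and 13.6-fold above Acini, the latter a log2 difference of 3.77 that was 4.44 without yDucts B, and its difference between yDucts and Ducts missed the threshold (-2.08, adjusted p = 0.0532). Fgf13, an FGF homologue that stays inside the cell, was at least 3.88-fold and at least 8.98-fold higher on its leading probe set. Its other probe set was not called against Acini (-0.14 in Ducts and 0.28 in yDucts).

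Of 22 tested co-receptor and heparan sulphate genes, 11 were called higher and 6 lower in Ducts, and 14 higher and 5 lower in yDucts (median 0.37 and 1.505), beside 42.4% higher and 32.9% lower of all genes in Ducts and 43.4% and 32.3% in yDucts. Klb, the Klotho co-receptor that Fgf21 needs, read 8.84, 8.10, 8.42 and 7.64 on the Acini arrays, 3.97 to 4.13 on the Ducts arrays and 4.02 to 4.37 on the yDucts arrays. It fell 18.5-fold and 16.1-fold (adjusted p = 3.24e-09 and 5.21e-09), so Fgf21 and its co-receptor were both low in the organoids. Flrt3, a membrane protein that binds FGF receptors, was at least 22.2-fold higher in Ducts and at least 17.8-fold higher in yDucts, and Hs6st2, which sulphates heparan sulphate, was 4.48-fold and 12.1-fold higher (2.16 and 3.60, or 0.80 and 1.69 with its probe sets averaged, and in Ducts 1.51 without Ducts A and B and 2.81 without Ducts C and D). Gpc3, a glypican that carries heparan sulphate, split the organoids: 5.74 to 6.24 on the Acini arrays, 4.97, 3.90, 4.0 and 3.96 on the Ducts arrays, and 7.93, 8.36, 8.10 and 7.58 on the yDucts arrays. It was lower than Acini in Ducts (-1.80), higher in yDucts (1.98) and 13.8-fold higher in yDucts than in Ducts (adjusted p = 2.11e-06). Leaving out Ducts C and D kept that call (adjusted p = 0.000137).

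**Figure D4:**
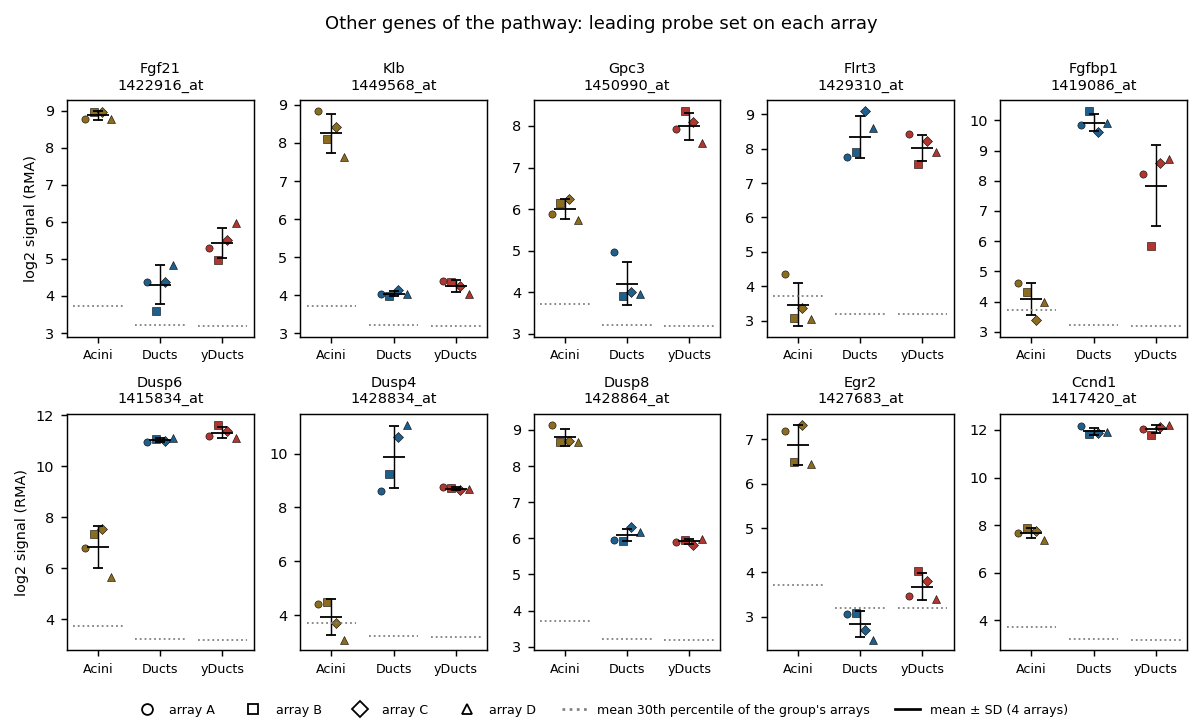
Log2 signal of 10 other genes of the pathway (panels, vertical axis, 1 scale per panel) in the 3 groups (horizontal axis), with 1 point per array, bars for the mean ± SD of 4 arrays and a dotted line at the mean 30th percentile of the group's arrays. Fgf21, Klb, Dusp8 and Egr2 are highest in Acini, Flrt3, Fgfbp1, Dusp6, Dusp4 and Ccnd1 are lowest in Acini, and Gpc3 is highest in yDucts and lowest in Ducts.

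Of 25 adaptor, RAS and ERK cascade genes, 18 were tested here, and 12 were called higher and 2 lower in each organoid group against Acini (median 1.01 and 1.21), beside 42.4% and 32.9% of all genes in Ducts and 43.4% and 32.3% in yDucts. The kinase gene Map2k1 rose 6.0-fold and 5.59-fold, the exchange factor gene Sos1 5.74-fold and 5.69-fold, the ubiquitin ligase gene Cbl 6.76-fold and 8.47-fold, and the ERK substrate kinase gene Rps6ka3 3.20-fold and 4.56-fold. For all 4, no organoid array overlapped the Acini arrays. These folds are those of the leading probe sets, and with all probe sets of a gene averaged the differences, still called, were 0.82 and 0.53 for Sos1 (from 2.52 and 2.51), 0.42 and 0.70 for Rps6ka3 (from 1.68 and 2.19) and 1.68 and 1.91 for Cbl (from 2.76 and 3.08). Between yDucts and Ducts, 0 of the 18 were called.

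Of 20 other feedback inhibitors, 11 were called higher and 6 lower in Ducts, and 11 higher and 5 lower in yDucts (median 0.998 and 1.15), against the same 42.4% and 32.9%, and 43.4% and 32.3%, of all genes. Dusp6, the cytoplasmic phosphatase of ERK and a standard readout of FGF signalling, read 6.79, 7.32, 7.54 and 5.67 on the Acini arrays, 10.93 to 11.10 on the Ducts arrays and 11.11 to 11.62 on the yDucts arrays. It rose 18.3-fold and 22.4-fold (adjusted p = 1.11e-07 and 6.0e-08). Dusp4, a nuclear phosphatase of the same kinases, rose 62.4-fold and 27.4-fold, with Ducts arrays at 8.61, 9.24, 10.63 and 11.07 that ran wider than the yDucts arrays at 8.64 to 8.76. Its difference in Ducts, 5.96, was 6.92 without Ducts A and B and 5.0 without Ducts C and D. Spred2, a relative of the Sprouty genes, rose 6.33-fold and 7.97-fold on its leading probe set, and by 0.33 and 0.34 with all its probe sets averaged. A further 2 of its probe sets were called lower in both organoid groups. Dusp8, a phosphatase of stress kinases, fell 6.50-fold and 7.35-fold (-2.70 and -2.88, or -1.69 and -1.77 with its probe sets averaged). None of the 20 was called between yDucts and Ducts.

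Of 24 ETS factors and genes that respond to ERK, 12 were called higher and 8 lower in Ducts, and 13 higher and 6 lower in yDucts (median 0.71 and 0.93), with those shares of all genes again at 42.4% and 32.9%, and 43.4% and 32.3%. Ccnd1, the cyclin of the G1 phase, rose 19.2-fold and 20.5-fold (adjusted p = 1.28e-10 and 1.04e-10), from 7.38 to 7.88 on the Acini arrays to 11.78 to 12.20 on all organoid arrays. The epithelial ETS factor gene Ehf rose 11.8-fold and 16.8-fold (3.56 and 4.07, or 1.75 and 2.15 with its probe sets averaged, and in Ducts 2.88 without Ducts A and B and 4.24 without Ducts C and D). The immediate early genes Jun and Egr2 fell, Jun 21-fold and 11.1-fold (in Ducts -4.39, -5.43 without Ducts A and B and -3.35 without Ducts C and D) and Egr2 at least 12.6-fold in Ducts and 9.09-fold in yDucts.

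By Pearson correlation over the 12 arrays, the genes whose pattern was most like that of Fgfr2 were Purg (r = 0.986), Heatr5b (0.984) and Pola1 (0.984). For Spry2 they were Tcf12 (0.997), Rbms1 (0.996) and Rplp2 (0.996), and for Etv5 Ttc30b, Taf1b and Elovl5 (each 0.996). For Fgfr1 they were Smoc1 (0.980), Tcea3 (0.979) and Plpp7 (0.978). The closest to Fgfr3 were Gdap10 (0.860), Sgk3 (0.838) and Dennd2d (0.836). These 12 points share their arrays, and the 3 groups set most of each value.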

How the data were processed

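Total RNA of 12 samples (Acini, Ducts and yDucts, 4 arrays each) was labelled with biotin and hybridised to Affymetrix arrays. The authors deposited log2 values, 1 per probe set and array, and their processing notes name RMA (background correction, quantile normalization, median polish). Neither the version of RMA nor whether all arrays were normalized together was given in the sources used here. The number of arrays limits the precision.

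Of 45037 non-control probe sets, the 33436 above the 30th percentile of their array on at least 4 arrays entered 1 limma fit (version 3.58.1, R 4.3.3) of group means over all arrays with moderated variances, 3 two-sided contrasts and Benjamini-Hochberg adjustment over all of them. All p given are adjusted. Differences carry the SE of the fit and levels the SD of 4 arrays. For a bound, values under an array's percentile were raised to it. The fit was checked on simulated data. The 10 genes and all gene lists were chosen with earlier results of these data known. Named from each pathway list were up to 4 genes, and from each marker list up to 3, with the largest difference among called genes without overlap. Also named were the 10 genes, the 3 genes most like each by correlation, and Yap1, Wwtr1 and Ccn2. Symbols came from the platform annotation, and all 10 Entrez identifiers matched RefSeq. Alternatives were 3 scalings, 2 filters, 2 ways of joining probe sets, array weights, a robust variance trend, the array letter as a block, and arrays left out.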

Additional observations from a re-analysis of the deposited data

Results flagged for a closer look

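Of 81 groups of 4 arrays (27 probe sets in 3 groups), 6 held an array whose gap to its nearest neighbour exceeded Dixon's critical share of the group's range, where chance gives about 5% of groups. Ducts A was high for Fgfr2 on 1433489_s_at (9.28 against 8.28 next, gap share 0.87) and for Etv5 on 1450082_s_at (5.77 against 5.13, 0.901). yDucts B was low for Fgfr3 on 1421841_at (4.60 against 5.95, 0.906). Acini A was high for Fgfr4 on 1427846_x_at (6.41 against 5.63, 0.857). yDucts A was low for Fgfrl1 on 1451912_a_at (6.46 against 6.57, 0.917), and Acini D was low for Spry4 on 1422021_at (5.03 against 5.35, 0.97). The last pair of gaps is small in size, 0.11 and 0.32, because the other arrays lay within 0.01 of each other.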

How the results depend on the processing

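The count of called probe sets was 21 in Ducts against Acini and 17 in yDucts against Acini of 26 tested. With 1 probe set per gene, as with the probe sets of each gene averaged, 8 and 7 of 10 were called, since fewer features were tested. The count between yDucts and Ducts was 4, and rose to 15 with array weights, which gave Ducts A and B low weight and called 11754 probe sets in all against 777. It was 7 without Ducts A and Ducts B and 0 without Ducts C and Ducts D, where all tested probe sets had 4065 and 434 calls. With each array left out in turn the 3 counts ran from 17 to 21, 17 to 18 and 1 to 6. Signs turned for values that were not called as reported: Spry1 in Ducts against Acini (-0.73 with quantile normalization, -0.89 with cyclic loess, -0.0875 without Ducts C and D, and -0.011 to 0.32 with single arrays left out, negative without Acini D), and between yDucts and Ducts Spry2 (0.27 with probe sets averaged, 0.22 without Ducts C and D), Etv4 (-0.00875 with probe sets averaged, -0.19 without Ducts C and D, and -0.054 to 0.18 with single arrays left out, negative without Ducts D) and Fgfr4 (0.0225 without Ducts A and B). They turned for the called values of Fgfrl1 1451912_a_at (-0.022) and Spry4 1422020_at (0.087) in Ducts against Acini under cyclic loess. The cause was not tested. The array letters did not pair the samples (correlation of deviations -0.30 to 0.11): with the letter as a replicate block the counts were 20, 17 and 3, and Etv5 on 1428142_at missed the threshold between yDucts and Ducts (adjusted p = 0.0526) as Etv4 passed it in Ducts against Acini (adjusted p = 0.0432). Fgfr1, Fgfr2, Fgfr4, Spry2 and Etv5 kept their calls against Acini on the leading probe sets under all 24 alternatives. For probe sets close to background, such as the dimmer ones of Fgfr4 and Spry4, the signal limits what can be told.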

Other observations

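Of 10 genes that steer the splicing of FGF receptor transcripts, 10 were called higher in Ducts and 8 in yDucts, with 1 lower and 1 not called (median 1.49 and 1.64), beside 42.4% and 43.4% of all genes called higher. Among them were Tia1 (8.43-fold and 6.15-fold), Ptbp2 (7.27-fold and 8.04-fold), Rbfox2 (3.60-fold and 6.0-fold) and Hnrnpm (4.37-fold and 4.21-fold), all without overlap. With probe sets averaged, Tia1 differed by 2.09 and 1.87 (from 3.08 and 2.62), Ptbp2 by 1.13 and 1.28 (from 2.86 and 3.01), and Rbfox2 by 0.18, not called (adjusted p = 0.222), and 0.39. The 2 that did not rise in yDucts were Esrp1 and Esrp2, named here after their values were seen. Esrp2 was 0.30 above Acini there (adjusted p = 0.205). Esrp1 encodes an epithelial regulator that favours the form of Fgfr2 that binds FGF10. It read 8.41, 8.62, 9.22 and 8.43 on the Acini arrays, 9.66, 9.64, 9.80 and 9.95 on the Ducts arrays, and 7.68, 8.17, 8.01 and 8.66 on the yDucts arrays. It was 3.10-fold lower in yDucts than in Ducts, without overlap (adjusted p = 0.00162), 2.13-fold higher in Ducts than in Acini, and lower in yDucts than in Acini with overlap (adjusted p = 0.0454). The total Fgfr2 signal was not called between the organoids, and the share of its splice forms was not measured.

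Also named after their values were seen are 2 other genes of the lists called higher in yDucts than in Ducts: Sulf2, a heparan sulphate sulphatase (1.06, adjusted p = 0.0403), and Egr1, an immediate early gene (1.93, adjusted p = 0.0420). The Ducts arrays A to D read 11.04, 10.85, 9.99 and 9.91 for Sulf2 and 10.49, 10.39, 8.60 and 8.04 for Egr1. Both differences were thus larger against Ducts C and D than against Ducts A and B, and neither call was tested without a pair. Egr1 read 13.06 to 13.37 on the Acini arrays and 10.9 to 11.54 on the yDucts arrays, so both organoid groups were below Acini. On 2 other probe sets Sulf2 was not called (1.20, adjusted p = 0.113, and -0.09, adjusted p = 0.972).

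Fgfr4 probe set 1427776_a_at, which was not tested, read 3.46 to 3.56 on the Acini arrays, 2.10 to 2.85 on the Ducts arrays and 2.25 to 2.60 on the yDucts arrays.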
